A study of Mus musculus with 15 samples.

Results

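The genes Yap1, Wwtr1, Tead1, Tead2, Tead3, Tead4, Lats1, Lats2, Vgll3 and Vgll4, which encode YAP, TAZ, the TEAD transcription factors, the LATS kinases and a pair of VGLL cofactors, were examined in organoids grown from the mouse small intestine, by sequencing of poly-A RNA. These 10 genes were picked by their symbols from the 78298 genes listed in the count files, with earlier results of these data known. In the Hippo pathway, the kinases MST1 and MST2 activate LATS1 and LATS2, which phosphorylate YAP and TAZ and thereby hold them in the cytoplasm or mark them for degradation. YAP and TAZ that escape phosphorylation enter the nucleus and switch on genes through TEAD proteins, which bind DNA, while VGLL proteins bind TEADs in their place. In the intestinal epithelium the pathway is best known for its part in regeneration after injury.

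The 15 libraries fell into 5 conditions of 3 libraries each. Organoids carrying L30prom_V5-Halo-GDGAGLIN-NLS_IRES_Puro expressed the HaloTag fused to a nuclear localization sequence and served as the control (Halo-NLS). Organoids carrying L30prom_Sox9-GDGAGLIN-Halo-V5_IRES_Puro (SOX9-Halo_budding) or L30prom_Sox9-GDGAGLIN-mEGFP-V5_IRES_Puro (SOX9-mEGFP_budding) expressed tagged SOX9 and were labelled organoids. Cultures of the same SOX9 lines labelled spheroids carried a second transgene for a tagged histone, namely L30prom_H2B-GDGAGLIN-mEGFP-V5_IRES_Zeo in SOX9-Halo_spheroid and L30prom_H2B-GDGAGLIN-mScarletI-V5_IRES_Neo in SOX9-mEGFP_spheroid. All were primary cultures from crypts of adult female mice, stably transduced with lentivirus, selected with antibiotics and harvested 5 d after seeding. L30 is a weak promoter that is active in all cell types. Each condition was 1 stable line, from which biological triplicates were taken within a few passages, so p-values measure the spread between cultures of that line and not between animals. The spheroid cultures were also older in passage, so shape, passage and second transgene cannot be told apart in any comparison of spheroids.

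Between 28062722 and 40559766 reads per library were counted on genes (median 33491297). Sox9 counts do not separate the transgene from the endogenous gene. Normalised Sox9 counts were 305 to 769 in Halo-NLS and at least 6487 in every SOX9 library except SOX9-Halo_budding replicate 1, with 1336. Halo-NLS replicate 3 stood apart from the other control libraries, with 40375 genes with a count against a median of 28352 over all libraries. The epithelial markers Epcam, Cdh1, Krt8, Krt18, Krt19 and Cldn7 summed to at least 163154 normalised counts in every library, whereas 6 markers of intestinal epithelium, Vil1 and Cdx2 among them, summed to 227590 to 259846 in Halo-NLS, 119543 to 167299 in SOX9-mEGFP_spheroid and 16265 to 20154 in SOX9-Halo_spheroid. Members of the epithelial list went opposite ways against Halo-NLS. Krt18 was called higher in both spheroid cultures (log2 fold changes 1.58 in SOX9-Halo_spheroid and 1.93 in SOX9-mEGFP_spheroid). Epcam (-1.11) and Cldn7 (-1.87) were called lower in SOX9-Halo_spheroid. Sums of 4 enterocyte markers were 134184 to 283331 in Halo-NLS, 4116 to 11471 in SOX9-mEGFP_spheroid and 52.0 to 162 in SOX9-Halo_spheroid. Sums of secretory markers went from at least 25261 in Halo-NLS to at most 2276 and 66.3, and those of stem cell markers from at least 4938 to at most 2573 and 1039, in the same order. Lgr5 went the other way in SOX9-mEGFP_spheroid, with a mean of 1538 against 387 in Halo-NLS. Of the 4 stem cell markers, 1 was called higher and 1 lower there, and 0 and 2 in SOX9-Halo_spheroid. Sums for these cell types moved with the differences between spheroids and Halo-NLS in the 10 genes, and their part in them was not tested. Sums of 8 mesenchymal markers (Col1a1 and Pdgfra among them) were 41.8 to 113 in Halo-NLS, 10.6 to 17.1 in SOX9-mEGFP_spheroid and 17.0 to 49.7 in SOX9-Halo_spheroid, where 2, 7 and 6 of the 8 had at most 3 reads in every library. Endothelial markers summed to at most 41.5, and immune markers to at most 271, in any library. Members of these lists went opposite ways. Cd68, with up to 270 in SOX9-Halo_spheroid, was called higher in both spheroid cultures against Halo-NLS. Lyz2 was called lower in both, and Itgam in SOX9-Halo_spheroid. Among mesenchymal markers, Pdgfrb was called lower in both, whereas Col1a1 averaged 21.2 in SOX9-Halo_spheroid and 4.94 in Halo-NLS and was not called. In bulk RNA, fewer cells of a type and less RNA per cell cannot be told apart, and transcript counts say nothing of the phosphorylation or location of YAP and TAZ.

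The 250 bases before the annotated start of a gene's main transcript (GENCODE M39, GRCm39) are shown for Wwtr1, Tead4 and Lats2, which were called higher in both spheroid cultures, and for Yap1, which was not called. All 4 genes lie on the minus strand, and the sequences run 5′ to 3′ with matches to the TEAD core GGAATG in capitals. The windows are chr3:57483250-57483499 for Wwtr1, chr6:128277777-128278026 for Tead4, chr14:57983717-57983966 for Lats2 and chr9:8004662-8004911 for Yap1.
Wwtr1: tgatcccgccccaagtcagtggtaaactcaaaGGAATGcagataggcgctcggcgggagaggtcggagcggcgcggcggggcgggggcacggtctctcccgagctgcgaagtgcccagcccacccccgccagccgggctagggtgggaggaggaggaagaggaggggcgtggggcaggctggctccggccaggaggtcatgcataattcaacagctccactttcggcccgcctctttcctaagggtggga
Tead4: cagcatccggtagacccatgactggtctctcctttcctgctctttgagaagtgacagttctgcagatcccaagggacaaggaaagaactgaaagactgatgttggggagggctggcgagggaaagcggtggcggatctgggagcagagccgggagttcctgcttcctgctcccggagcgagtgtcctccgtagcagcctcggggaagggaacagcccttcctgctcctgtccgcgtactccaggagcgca
Lats2: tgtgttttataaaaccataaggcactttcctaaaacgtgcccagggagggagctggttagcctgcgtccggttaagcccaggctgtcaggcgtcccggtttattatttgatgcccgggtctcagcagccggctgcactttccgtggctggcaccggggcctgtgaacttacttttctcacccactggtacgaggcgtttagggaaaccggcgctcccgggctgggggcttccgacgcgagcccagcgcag
Yap1: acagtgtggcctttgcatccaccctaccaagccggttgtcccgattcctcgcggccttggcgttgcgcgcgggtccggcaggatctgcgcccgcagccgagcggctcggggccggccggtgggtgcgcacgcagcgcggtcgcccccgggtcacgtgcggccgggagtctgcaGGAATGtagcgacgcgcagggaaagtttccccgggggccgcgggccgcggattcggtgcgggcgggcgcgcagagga

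Both strands of these windows were searched for the TEAD core GGAATG, the SOX core AACAAT and the AP-1 core TGANTCA, of which none overlaps another in the matches found. GGAATG began 218 bases before the Wwtr1 start and 77 bases before the Yap1 start, and the windows of Tead4 and Lats2 held no match. Over 21770 protein-coding genes, 12.1% of windows of this length held GGAATG, 9.67% held AACAAT and 6.17% held TGANTCA. None of the 10 genes had a match to AACAAT or TGANTCA in its window, and Tead1 and Tead3 each had 1 match to GGAATG. Over all windows the share of G and C had a median of 53.2% and quartiles of 46% and 60.8%. Wwtr1 (67.2%) and Yap1 (74%) lay above the upper quartile, and Tead4 (60%) and Lats2 (59.6%) between the quartiles. A match is a string of letters and not a site of binding, and other distances were not searched.

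Both spheroid cultures were first compared with Halo-NLS, which asks how this gene set stood in SOX9 spheroids relative to control organoids. A gene was called with an adjusted p of at most 0.01 (edgeR's quasi-likelihood test, Benjamini-Hochberg over the 17560 genes tested), at least a 2-fold difference and 10 or more normalised counts on average. All 10 genes passed the filter on low counts. In SOX9-Halo_spheroid, 3 of the 10 were upregulated and 0 downregulated, against 13.6% of all tested genes called higher and 15.3% called lower. In SOX9-mEGFP_spheroid, the same 3 genes were upregulated and 0 downregulated, against 15.3% and 12.1%. The 3 genes were Wwtr1, Tead4 and Lats2, that is, 1 transcriptional coactivator, 1 DNA-binding partner and 1 inhibitory kinase. The median log2 fold change over the 10 genes was 1.496 in SOX9-Halo_spheroid and 1.66 in SOX9-mEGFP_spheroid, where the medians over all tested genes were -0.01 and 0.03. With an adjusted p of at most 0.05 alone, 6 of the 10 passed in SOX9-Halo_spheroid and 7 in SOX9-mEGFP_spheroid, but so did 48.4% and 49.8% of all tested genes. Counts of all 3 libraries lay above Halo-NLS for 7 of the 10 genes in SOX9-Halo_spheroid (26.5% of all tested genes) and below it for 1 (28.4%). In SOX9-mEGFP_spheroid these were 6 (29.5%) and 1 (27%). DESeq2 called these 3 genes and 1 more in each culture, Tead2 in SOX9-Halo_spheroid and Lats1 in SOX9-mEGFP_spheroid. Over all genes, DESeq2 called 5277 and 5125 of 26241 in the 2 cultures. These comparisons share the Halo-NLS libraries and are not independent of each other.

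**Figure D1:**
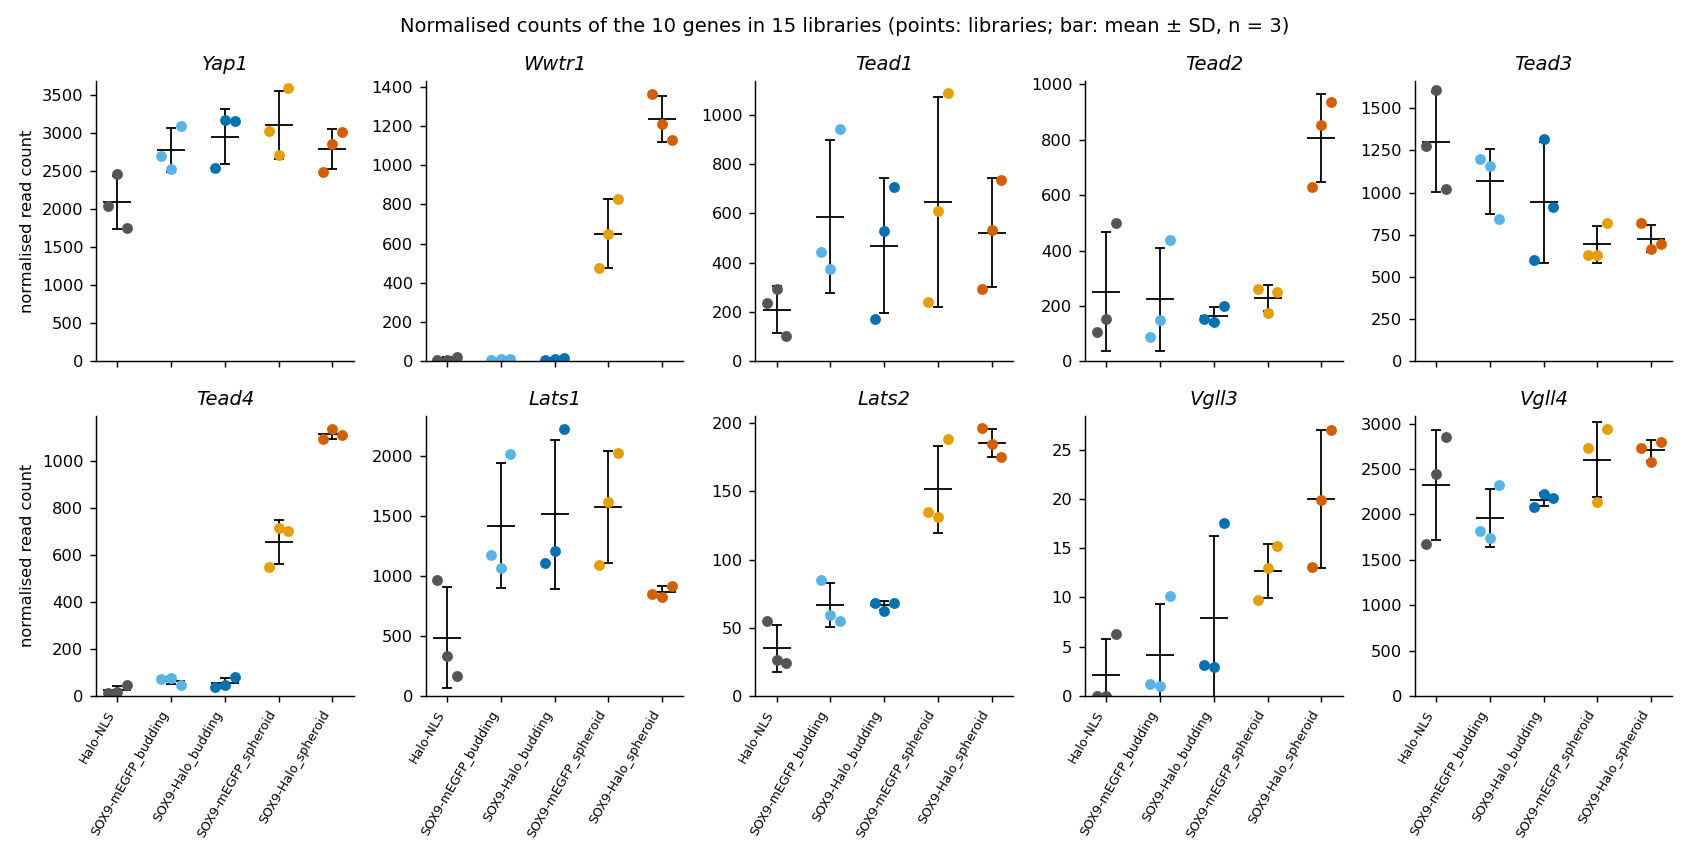
Normalised read counts (y axes, from 0, own scale per gene) of the 10 genes in the 5 conditions; points are libraries, the horizontal bar is the mean and the whisker the SD of 3 libraries. Wwtr1 and Tead4 lie at 474.8 or more in all 6 spheroid libraries and at 79.0 or less in all 9 others.

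The coactivators are described first. Wwtr1 (ENSMUSG00000027803, chromosome 3 from 57363067 to 57483331, minus strand), which encodes TAZ, was close to the limit of detection outside the spheroids. Its normalised counts were 7.84, 6.89 and 23.9 in Halo-NLS, 7.29, 9.35 and 9.34 in SOX9-mEGFP_budding, and 5.57, 9.73 and 17.6 in SOX9-Halo_budding, from 6 to 19 reads per library. They were 475, 649 and 827 in SOX9-mEGFP_spheroid and 1361, 1212 and 1128 in SOX9-Halo_spheroid. Every spheroid library thus lay above every other library, and the SOX9-Halo spheroids lay above the SOX9-mEGFP spheroids without overlap. The log2 fold change against Halo-NLS was 6.58 (SE 0.48, adjusted p = 5.0e-08, edgeR) in SOX9-Halo_spheroid and 5.65 (SE 0.46, adjusted p = 3.5e-07, edgeR) in SOX9-mEGFP_spheroid. In means, the level was 95.9-fold and 50.5-fold higher. Without Halo-NLS replicate 3, the log2 fold changes were 7.37 and 6.44.

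Yap1 (ENSMUSG00000053110, chromosome 9 from 7932000 to 8004661, minus strand) encodes YAP, the paralog of TAZ, and was abundant in every condition. Normalised counts were 2040, 2458 and 1756 in Halo-NLS, 3022, 2707 and 3587 in SOX9-mEGFP_spheroid and 2491, 2859 and 3008 in SOX9-Halo_spheroid. All spheroid libraries lay above all Halo-NLS libraries, but by 1.49-fold and 1.34-fold in the means. Budding libraries, at 2527 to 3161, overlapped with the spheroids. The log2 fold change of 0.57 (SE 0.18) had an adjusted p of 0.018 in SOX9-mEGFP_spheroid, and that of 0.42 (SE 0.18) had an adjusted p of 0.074 in SOX9-Halo_spheroid (both edgeR), so neither was called. In RPKM, that is, counts scaled to library size and to kilobases of exon, Yap1 stood at 6.63 ± 1.12 (SD, n = 3) in Halo-NLS and 8.85 ± 0.85 in SOX9-Halo_spheroid.

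The ratio of Wwtr1 to Yap1 within a library, each per kilobase of exon, does not depend on how libraries are scaled. Its geometric mean was 0.418% in Halo-NLS, 0.247% in SOX9-mEGFP_budding and 0.266% in SOX9-Halo_budding. It was 16.3% in SOX9-mEGFP_spheroid and 35.1% in SOX9-Halo_spheroid. Yap1 therefore remained the more abundant transcript of the pair in every library, while its excess over Wwtr1 went from 239.5-fold in Halo-NLS to 6.14-fold and 2.85-fold in the spheroids. The size of the excess depends on the length used. With the longest transcript, Yap1 and Wwtr1 were at mean RPKM of 17.5 and 4.12 in SOX9-mEGFP_spheroid and 15.7 and 7.82 in SOX9-Halo_spheroid. In Halo-NLS they were at 11.8 and 0.082. Spheroid and Halo-NLS ratios did not overlap, and the two-sided exact permutation test gave p = 0.1, the smallest that 3 against 3 libraries allow, and 0.218 after adjustment over the 48 share and ratio tests made. The summed level of the pair was 6.66 ± 1.10 RPKM in Halo-NLS, 11.5 ± 1.73 in SOX9-mEGFP_spheroid and 12.0 ± 0.55 in SOX9-Halo_spheroid (SD, n = 3).

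**Figure D2:**
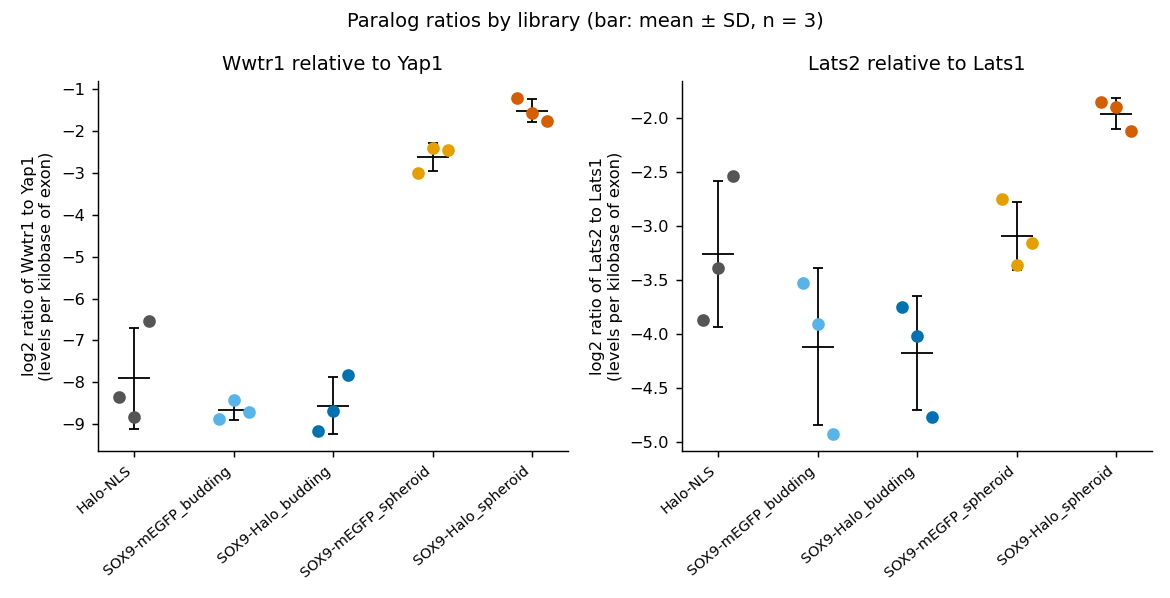
Log2 ratio (y axes) of Wwtr1 to Yap1 and of Lats2 to Lats1, levels per kilobase of exon, in the 5 conditions; points are libraries, bars are the mean ± SD of 3. Wwtr1 to Yap1 separates the spheroid libraries from all others, whereas Lats2 to Lats1 overlaps between Halo-NLS and SOX9-mEGFP_spheroid (geometric means 10.4% and 11.7%).

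The TEAD genes encode the DNA-binding partners of YAP and TAZ, and moved unequally. Tead4 (ENSMUSG00000030353, chromosome 6 from 128201251 to 128277786, minus strand) had normalised counts of 14.4, 17.2 and 46.5 in Halo-NLS, 72.9, 75.8 and 46.7 in SOX9-mEGFP_budding, and 37.4, 46.7 and 79.0 in SOX9-Halo_budding. In the spheroids the counts were 548, 717 and 702 for SOX9-mEGFP and 1093, 1137 and 1113 for SOX9-Halo. As for Wwtr1, the spheroid libraries lay apart from all others and the spheroid cultures did not overlap. The log2 fold change against Halo-NLS was 5.41 (SE 0.44, adjusted p = 1.3e-07, edgeR) in SOX9-Halo_spheroid and 4.65 (SE 0.42, adjusted p = 8.6e-07, edgeR) in SOX9-mEGFP_spheroid, and 6.13 and 5.36 without Halo-NLS replicate 3.

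Tead2 (ENSMUSG00000030796, chromosome 7 from 44865172 to 44883071, plus strand) lay above Halo-NLS without overlap in only 1 of the spheroid cultures. Normalised counts were 629, 853 and 937 in SOX9-Halo_spheroid, but 260, 175 and 249 in SOX9-mEGFP_spheroid. They were 105, 151 and 499 in Halo-NLS, 86.2, 147 and 437 in SOX9-mEGFP_budding and 152, 141 and 200 in SOX9-Halo_budding. The SOX9-Halo spheroids were above all other libraries, and Halo-NLS and SOX9-mEGFP_budding each had 1 library far above its other replicates. Against Halo-NLS, the log2 fold change of 1.68 (SE 0.57) in SOX9-Halo_spheroid had an adjusted p of 0.024 (edgeR) and was not called, but DESeq2 called it (1.67, adjusted p = 0.0094), and without Halo-NLS replicate 3 it was 2.65 with an edgeR adjusted p of 0.0016. In SOX9-mEGFP_spheroid it was -0.14 (SE 0.56, adjusted p = 0.85, edgeR), and 0.83 without that library.

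Tead3 (ENSMUSG00000002249, chromosome 17 from 28550645 to 28569791, minus strand) was the only one of the 10 genes whose spheroid libraries all lay below Halo-NLS in both cultures. Its normalised counts were 1274, 1610 and 1019 in Halo-NLS, 630, 629 and 822 in SOX9-mEGFP_spheroid and 821, 667 and 695 in SOX9-Halo_spheroid. The log2 fold changes of -0.91 (SE 0.27, adjusted p = 0.013, edgeR) and -0.84 (SE 0.27, adjusted p = 0.019, edgeR) missed both the fold and the p threshold, although without Halo-NLS replicate 3 that in SOX9-mEGFP_spheroid was -1.06 and passed both (adjusted p = 0.0098). Budding libraries, at 601 to 1317, overlapped with both. Tead1 (ENSMUSG00000055320, chromosome 7 from 112278522 to 112506014, plus strand) ranged from 103 to 291 normalised counts in Halo-NLS, from 239 to 1088 in SOX9-mEGFP_spheroid and from 294 to 737 in SOX9-Halo_spheroid. Budding libraries ranged from 171 to 941. It was not called, with log2 fold changes of 1.62 (SE 0.61, adjusted p = 0.039, edgeR) and 1.31 (SE 0.61, adjusted p = 0.087, edgeR).

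The summed level of the 4 TEAD transcripts was 7.74 ± 0.94 RPKM in Halo-NLS, 8.96 ± 1.73 in SOX9-mEGFP_spheroid and 14.2 ± 1.10 in SOX9-Halo_spheroid (SD, n = 3). The make-up of this pool differed between conditions. Tead3 made up 74.6% ± 13.8 of it in Halo-NLS, 34.6% ± 2.72 in SOX9-mEGFP_spheroid and 22.9% ± 4.30 in SOX9-Halo_spheroid. Tead4 made up 1.66% ± 1.13, 36.3% ± 4.55 and 38.5% ± 2.64 in the same order. Spheroid and Halo-NLS libraries did not overlap for either gene, again with exact permutation p = 0.1 for each and 0.218 after adjustment. Tead2 held 17.7% ± 15.3 in Halo-NLS, 14.2% ± 4.26 in SOX9-mEGFP_spheroid and 30.7% ± 3.91 in SOX9-Halo_spheroid. The order of the 4 genes within the spheroids depends on the length used. With the length of the longest transcript, Tead3 held 45.7% ± 2.69 and Tead4 25.2% ± 3.59 in SOX9-mEGFP_spheroid, and Tead3 31.0% ± 5.63, Tead2 34.1% ± 4.52 and Tead4 27.4% ± 1.81 in SOX9-Halo_spheroid (SD, n = 3). Tead3 still held more in every Halo-NLS library (64.4% to 86.7%) than in any spheroid library, and Tead4 less (0.53% to 1.71%).

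**Figure D3:**
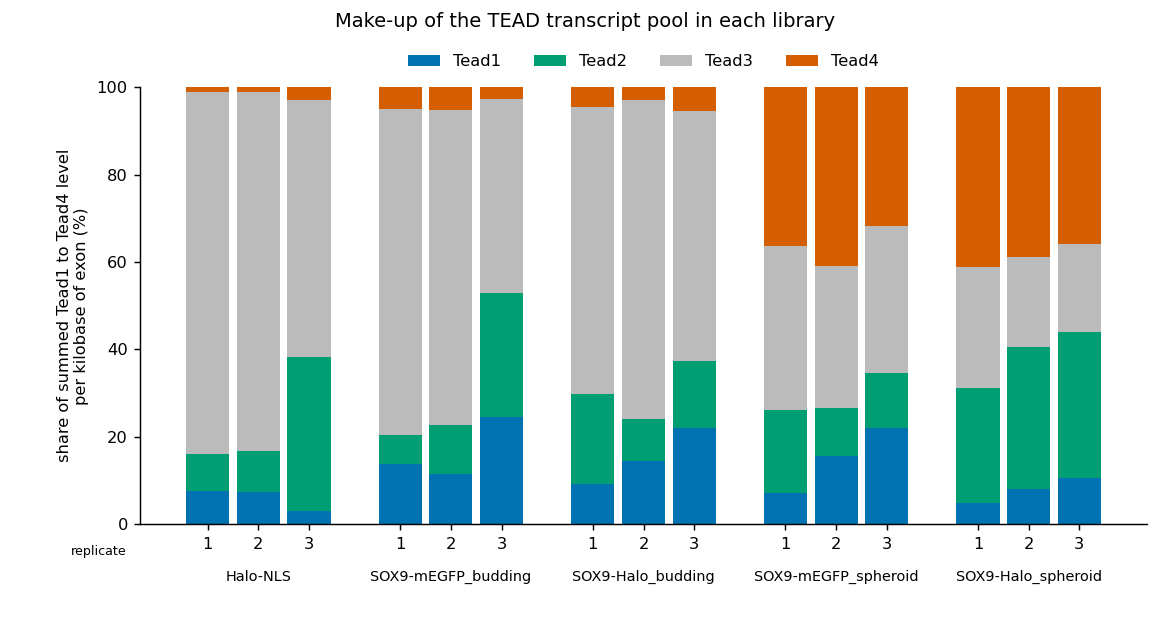
Share (y axis, %) of Tead1, Tead2, Tead3 and Tead4 in their summed level per kilobase of exon, 1 stacked bar per library, grouped by condition. Tead3 holds 44.5% to 83.0% of the pool in Halo-NLS and budding libraries and 20.2% to 37.6% in spheroid libraries, where Tead4 holds 31.8% to 41.0%.

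The LATS kinases restrain YAP and TAZ. Lats2 (ENSMUSG00000021959, chromosome 14 from 57926960 to 57995845, minus strand) was the scarcer of the pair in every library. Its normalised counts were 54.9, 26.4 and 23.9 in Halo-NLS, 135, 131 and 189 in SOX9-mEGFP_spheroid and 197, 184 and 176 in SOX9-Halo_spheroid. The spheroid libraries lay above all others, since the budding libraries held 55.3 to 85.04. The log2 fold change against Halo-NLS was 2.40 (SE 0.32, adjusted p = 2.0e-05, edgeR) in SOX9-Halo_spheroid and 2.11 (SE 0.32, adjusted p = 9.3e-05, edgeR) in SOX9-mEGFP_spheroid. Of the Lats2 exon bases, 28.2% are shared on the same strand with the annotated gene Gm49361, and reads there count for neither gene, so the level of Lats2 is understated in all libraries.

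Lats1 (ENSMUSG00000040021, chromosome 10 from 7556736 to 7592226, plus strand) had normalised counts of 962, 330 and 166 in Halo-NLS, 1089, 1617 and 2022 in SOX9-mEGFP_spheroid and 852, 827 and 918 in SOX9-Halo_spheroid. The SOX9-mEGFP spheroids were above all Halo-NLS libraries, while Halo-NLS replicate 1 exceeded all SOX9-Halo spheroids. In SOX9-mEGFP_spheroid the log2 fold change was 1.70 (SE 0.50, adjusted p = 0.011, edgeR), just outside the threshold. DESeq2 called it (1.66, adjusted p = 0.0033), as did edgeR with library sizes alone (1.94, adjusted p = 0.0087) and without Halo-NLS replicate 1 (2.67, adjusted p = 0.00018). In SOX9-Halo_spheroid it was 0.83 (SE 0.49, adjusted p = 0.17, edgeR), and 1.81 (adjusted p = 0.0023) without that replicate. Lats2 relative to Lats1, per kilobase of exon, had a geometric mean of 10.4% in Halo-NLS, 11.7% in SOX9-mEGFP_spheroid and 25.7% in SOX9-Halo_spheroid. The SOX9-Halo spheroids lay above Halo-NLS without overlap (exact permutation p = 0.1, the smallest possible), whereas the SOX9-mEGFP spheroids overlapped with it (exact permutation p = 0.7).

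The VGLL cofactors bind TEADs through a short motif, and VGLL4 is known to compete with YAP for them. Vgll4 (ENSMUSG00000030315, chromosome 6 from 114837589 to 114946955, minus strand) had the highest mean RPKM of the 10 genes in each condition, from 10.8 to 14.9. Its normalised counts were 1669, 2450 and 2855 in Halo-NLS, 2735, 2137 and 2936 in SOX9-mEGFP_spheroid and 2734, 2579 and 2800 in SOX9-Halo_spheroid. Budding libraries held 1741 to 2327. The ranges of spheroids and Halo-NLS overlapped, and the log2 fold changes of 0.16 (SE 0.21, adjusted p = 0.52, edgeR) and 0.22 (SE 0.21, adjusted p = 0.40, edgeR) were not called. Vgll3 (ENSMUSG00000091243, chromosome 16 from 65611923 to 65663369, plus strand) was scarce, with 0, 0 and 5 reads in Halo-NLS, 11, 13 and 16 in SOX9-mEGFP_spheroid and 11, 21 and 30 in SOX9-Halo_spheroid. Budding libraries had 1 to 18 reads. The spheroid libraries were above Halo-NLS, but the adjusted p of 0.018 in SOX9-Halo_spheroid and 0.058 in SOX9-mEGFP_spheroid (edgeR) missed the threshold, and a mean normalised count of 9.35 over all libraries was under the minimum for a call. A count of 0 allows up to 3 reads, for counting error only.

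In the order of their levels in Halo-NLS, Vgll4 (12.8 ± 3.32 RPKM), Yap1 (6.63 ± 1.12) and Tead3 (5.78 ± 1.31) came first (SD, n = 3). Yap1 and Tead3 did not differ beyond their spread. Tead2 (1.37 ± 1.18), Lats1 (1.15 ± 1.00) and Tead1 (0.46 ± 0.21) followed with overlapping ranges. Tead4 (0.13 ± 0.087), Lats2 (0.10 ± 0.049) and Wwtr1 (0.032 ± 0.024) were lowest apart from Vgll3, again without a clear order among them. In SOX9-Halo_spheroid, Tead4 (5.47 ± 0.11), Tead2 (4.40 ± 0.87), Tead3 (3.23 ± 0.36) and Wwtr1 (3.11 ± 0.30) came next after Vgll4 and Yap1. The order among these 4 turns with the length used, since with the longest transcript Wwtr1 was at 7.82 ± 0.75, Tead2 at 7.02 ± 1.39, Tead3 at 6.30 ± 0.71 and Tead4 at 5.60 ± 0.11. Vgll4 above Yap1, Yap1 above Wwtr1 and Lats1 above Lats2 held in 15 of 15 libraries with that length too.

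Each spheroid culture was next compared with the budding organoids of its own SOX9 line, which holds the first construct constant but not the Sox9 level. Mean Sox9 counts were 2.15-fold higher in the spheroids of the SOX9-Halo line and 1.70-fold higher in those of the SOX9-mEGFP line, with overlapping libraries. The part of the Sox9 level was not tested. For SOX9-Halo, spheroids had 4 of the 10 genes upregulated and 0 downregulated (edgeR), against 10.5% of all tested genes called higher and 14.7% lower. For SOX9-mEGFP, 3 were upregulated and 0 downregulated, against 8.55% and 7.88%. Wwtr1, Tead4 and Lats2 were called in both lines. Wwtr1 had log2 fold changes of 6.82 (SE 0.48, adjusted p = 4.4e-08, edgeR) in the SOX9-Halo line and 6.198 (SE 0.48, adjusted p = 3.1e-07, edgeR) in the SOX9-mEGFP line. For Tead4 these were 4.36 (SE 0.41) and 3.34 (SE 0.39). Without SOX9-Halo_budding replicate 1, the library with little Sox9, they were 6.48 for Wwtr1 and 4.14 for Tead4 in the SOX9-Halo line.

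Lats2 had a log2 fold change of 1.48 (SE 0.30, adjusted p = 0.0010, edgeR) from budding to spheroid in the SOX9-Halo line. In the SOX9-mEGFP line it was 1.19 (SE 0.30, adjusted p = 0.0077, edgeR), a call that was lost without SOX9-mEGFP_budding replicate 2 (1.09, adjusted p = 0.045) or replicate 3 (1.02, adjusted p = 0.039), and without any one of the SOX9-mEGFP_spheroid libraries (0.97 to 1.26). The fourth call, in the SOX9-Halo line, was Tead2, with a log2 fold change of 2.29 (SE 0.58, adjusted p = 0.0050, edgeR). With the replicate number as a block within that line, it was 2.25 (adjusted p = 0.00020, edgeR). This pairing was read from these same counts and not from the labels, so the smaller p adds no separate support. The log2 fold change of Tead2 kept between 2.11 and 2.48 with 1 library left out in turn, but the adjusted p was then over the threshold in 5 of 6 runs, at most 0.022.

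Yap1 did not follow Wwtr1 in this comparison either, with log2 fold changes of -0.08 (SE 0.18) in the SOX9-Halo line and 0.16 (SE 0.18) in the SOX9-mEGFP line. Tead1, Lats1 and Tead3 were not called in either line. Tead3 had negative log2 fold changes of -0.37 (SE 0.27, adjusted p = 0.30, edgeR) and -0.62 (SE 0.27, adjusted p = 0.11, edgeR). Its share of the TEAD pool went from 65.3% ± 7.92 to 22.9% ± 4.30 in the SOX9-Halo line and from 63.7% ± 16.7 to 34.6% ± 2.72 in the SOX9-mEGFP line (SD, n = 3), without overlap (exact permutation p = 0.1 for each). Lats1 was not called in the SOX9-Halo line (-0.80, SE 0.49, adjusted p = 0.21, edgeR) although all spheroid libraries, 827 to 918, lay below all budding libraries, 1104 to 2226.

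**Figure D4:**
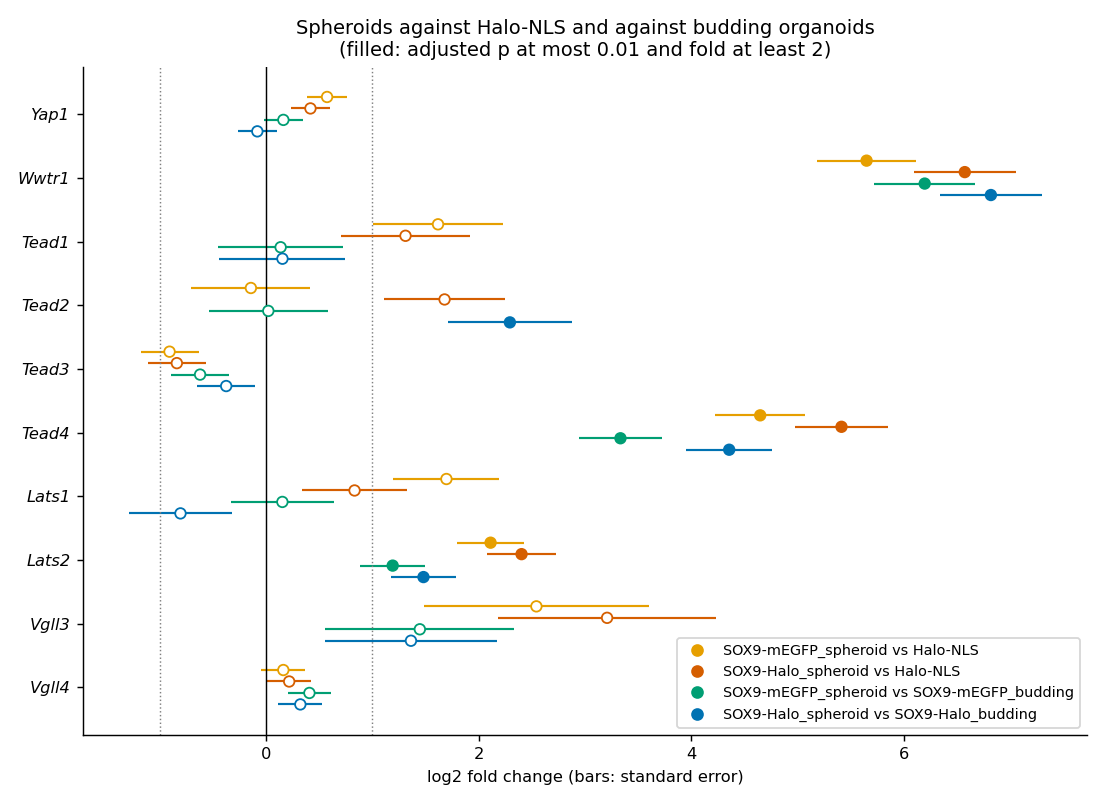
Log2 fold change (x axis) of the 10 genes in 4 comparisons of spheroids, with the standard error as a bar; filled points passed the thresholds. Wwtr1, Tead4 and Lats2 are filled in all 4 comparisons and Tead2 in 1, the SOX9-Halo line.

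Budding SOX9 organoids were compared with Halo-NLS to ask whether tagged SOX9 without the spheroid shape went with a change in these genes. In SOX9-Halo_budding, 0 of the 10 genes were called by edgeR, against 3.75% of all tested genes called in either direction, with 4 genes at an unadjusted p under 0.05 and 1 called by DESeq2. In SOX9-mEGFP_budding, 0 were called by edgeR, against 2.76%, with 5 genes at an unadjusted p under 0.05 and 1 called by DESeq2. The genes called by DESeq2 were Lats1 and Tead4, respectively. Over all genes, DESeq2 called 1602 and 1197 of 17006 in these comparisons, so 1 of 10 was near that share. The share of all tested genes at an unadjusted p under 0.05 was not counted, here or below. With an adjusted p of at most 0.05 alone, 1 gene passed in SOX9-Halo_budding and 2 in SOX9-mEGFP_budding, against 18.9% and 15% of all tested genes. Wwtr1 had log2 fold changes of -0.25 (SE 0.48) and -0.55 (SE 0.50), within the spread between libraries. Tead4 had 1.06 (SE 0.40, adjusted p = 0.073, edgeR) and 1.31 (SE 0.40, adjusted p = 0.041, edgeR), and in SOX9-mEGFP_budding it was 2.02 (adjusted p = 0.0068) without Halo-NLS replicate 3. Lats1 had 1.64 (SE 0.50, adjusted p = 0.035, edgeR) and 1.54 (SE 0.50, adjusted p = 0.0497, edgeR). Its budding libraries, at 1061 to 2226, lay above all Halo-NLS libraries, and without Halo-NLS replicate 1 both log2 fold changes passed the thresholds, at 2.61 and 2.51. Lats2 had 0.92 in each (SE 0.32, adjusted p = 0.054 and 0.062, edgeR), and 1.40 in each without that replicate, which also passed.

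The SOX9-Halo and SOX9-mEGFP lines were compared directly within each shape. The tag cannot be told apart from the line and its passage, nor in spheroids from the second transgene. Between SOX9-Halo_budding and SOX9-mEGFP_budding, 0 of the 10 genes were called by edgeR, against 0.456% of all tested genes, 0 had an unadjusted p under 0.05 and DESeq2 called 0. Between SOX9-Halo_spheroid and SOX9-mEGFP_spheroid, 0 were called by edgeR, against 13.2%, with 3 at an unadjusted p under 0.05 and 1 called by DESeq2. The 3 were Tead2, Wwtr1 and Tead4. Over all genes, DESeq2 called 196 of 21110 between the budding lines and 2626 of 22136 between the spheroids. Tead2 was higher in the SOX9-Halo spheroids by a log2 fold change of 1.82 (SE 0.57, adjusted p = 0.030, edgeR), Wwtr1 by 0.92 (SE 0.36, adjusted p = 0.076, edgeR) and Tead4 by 0.76 (SE 0.35, adjusted p = 0.13, edgeR). In all 3, the SOX9-Halo spheroid libraries lay above the SOX9-mEGFP spheroid libraries, which held for 20.6% of all tested genes, and they lay below for Lats1 alone (28% of all tested genes). With an adjusted p of at most 0.05 alone, 1 gene, Tead2, passed, against 24.1% of all tested genes. In the test of the difference between lines in the change from budding to spheroid, 0 of the 10 genes were called by edgeR, against 7.39% of all tested genes, with 1 at an unadjusted p under 0.05 and 0 called by DESeq2. That gene was Tead2, whose change was larger in the SOX9-Halo line by 2.27 on the log2 scale (SE 0.80, adjusted p = 0.079, edgeR). The differing Tead2 calls in the lines are thus not shown to be a difference between them. Over all genes, DESeq2 called 1712 of 21110 in this test of the difference between lines.

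Spread between replicates differed among the genes. The coefficient of variation within a condition had a median over conditions of 12.2% for Yap1, 15.98% for Vgll4 and 18.1% for Tead3, but 52.9% for Tead1 and 36.8% for Lats1. In 4 of 5 conditions, the library with the most Tead1 was also that with the most Lats1. In 3 of 5 conditions, the library with the most Lats1 had the largest share of reads on no gene, a share that ranged from 1.83% to 6.09% over all libraries. Its part in the spread was not tested, and how often other genes match in these ways was not counted. The chromosomes that carry the 10 genes had median log2 fold changes between -0.27 and 0.29 in the 4 comparisons of spheroids. Such medians cannot show a change confined to part of a chromosome, and no cause was tested.

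The genes most like Wwtr1, Tead4 and Lats2 in pattern were sought by Pearson correlation of log2 normalised abundance over the 15 libraries, among 11054 genes with a mean normalised count of at least 100. Wwtr1 was most like Cdh13 (r = 0.995), Cavin2 (r = 0.995) and Tmem43 (r = 0.994). Tead4 was most like Ncmap (r = 0.987), Gpr137b (r = 0.983) and Mfhas1 (r = 0.983). Lats2 was most like Asah1 (r = 0.970), Sh3bgrl2 (r = 0.968) and Car2 (r = 0.968). Since the spheroid libraries stand apart for these genes, such values largely describe that separation, and they are given as a description only.

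Other genes of the pathway were counted from lists. Of 21 genes for kinases and scaffolds of the Hippo cascade other than LATS1 and LATS2, 6 were upregulated and 0 downregulated in SOX9-Halo_spheroid relative to Halo-NLS, and 8 and 1 in SOX9-mEGFP_spheroid. Over all tested genes, 13.6% were called higher and 15.3% lower in SOX9-Halo_spheroid, and 15.3% and 12.1% in SOX9-mEGFP_spheroid. The median log2 fold changes of the 21 genes were 0.50 and 1.04. The most abundant of those called included Stk3, which encodes the kinase MST2 (log2 fold changes 2.49 and 2.11), and the scaffold genes Wwc2 (6.88 and 5.04) and Frmd6 (4.51 and 3.54). Map4k3, a kinase that can phosphorylate LATS, was also upregulated (1.38 and 1.69), and Stk38l, which encodes a relative of LATS (1.04), and Tnik (1.54) were called in SOX9-mEGFP_spheroid. The 1 downregulated gene was Map4k2 (-1.52), named after its value was seen. Relative to the budding organoids of the same line, 3 were upregulated and 2 downregulated in SOX9-Halo_spheroid, and 2 and 0 in SOX9-mEGFP_spheroid.

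All list counts against Halo-NLS and against the budding organoids use the thresholds above. Against Halo-NLS, 13.6% of all tested genes were called higher and 15.3% lower in SOX9-Halo_spheroid, and 15.3% and 12.1% in SOX9-mEGFP_spheroid. Of 12 genes of STRIPAK, the phosphatase complex that turns MST kinases off, 1 was upregulated in SOX9-Halo_spheroid and 4 in SOX9-mEGFP_spheroid relative to Halo-NLS, and 0 and 1 were downregulated. The gene Cttnbp2nl was called in both (3.09 and 3.60), and Slmap (2.18), Strn (1.72) and Strn3 (1.86) in SOX9-mEGFP_spheroid. The downregulated gene was Strip2 (-1.69), named after its value was seen. Of 17 tested genes for junction and polarity regulators of the pathway, 5 were upregulated and 0 downregulated in either culture, and these were the same 5 genes. The 4 most abundant of them were Dlg1 (2.08 in SOX9-Halo_spheroid and 2.12 in SOX9-mEGFP_spheroid), Ajuba (4.35 and 2.90), which encodes a LIM protein that binds LATS, Ptpn14 (7.90 and 7.12) and Amotl2 (3.39 and 2.49), whose products bind YAP, and the fifth was Amotl1 (8.06 and 5.92).

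Of 11 genes for the retention and turnover of YAP and TAZ, 1 was upregulated in SOX9-Halo_spheroid and 2 in SOX9-mEGFP_spheroid, and 0 were downregulated in either. Of all tested genes, 13.6% and 15.3% were called higher in the same order. Ywhaz, which encodes a 14-3-3 protein that holds phosphorylated YAP in the cytoplasm, had log2 fold changes of 1.51 and 1.44, and Csnk1e, a casein kinase gene, had 1.27 in SOX9-mEGFP_spheroid. The 4 further TEAD cofactor genes of the lists did not pass the filter on low counts. Of 18 tested genes of a list of YAP target genes, which contains Lats2, Ptpn14 and Amotl2 as well, 11 were upregulated and 2 downregulated in SOX9-Halo_spheroid, and 14 and 1 in SOX9-mEGFP_spheroid, with median log2 fold changes of 1.96 and 2.33. Its most abundant called genes were Myof, a membrane repair gene (8.88 and 7.63), Ptpn14, Amotl2, Crim1 in SOX9-Halo_spheroid and Dock5 in SOX9-mEGFP_spheroid. Fjx1 was downregulated in both (-6.07 and -3.54) and Arhgef17 in SOX9-Halo_spheroid (-7.32), each named after its value was seen.

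**Figure D5:**
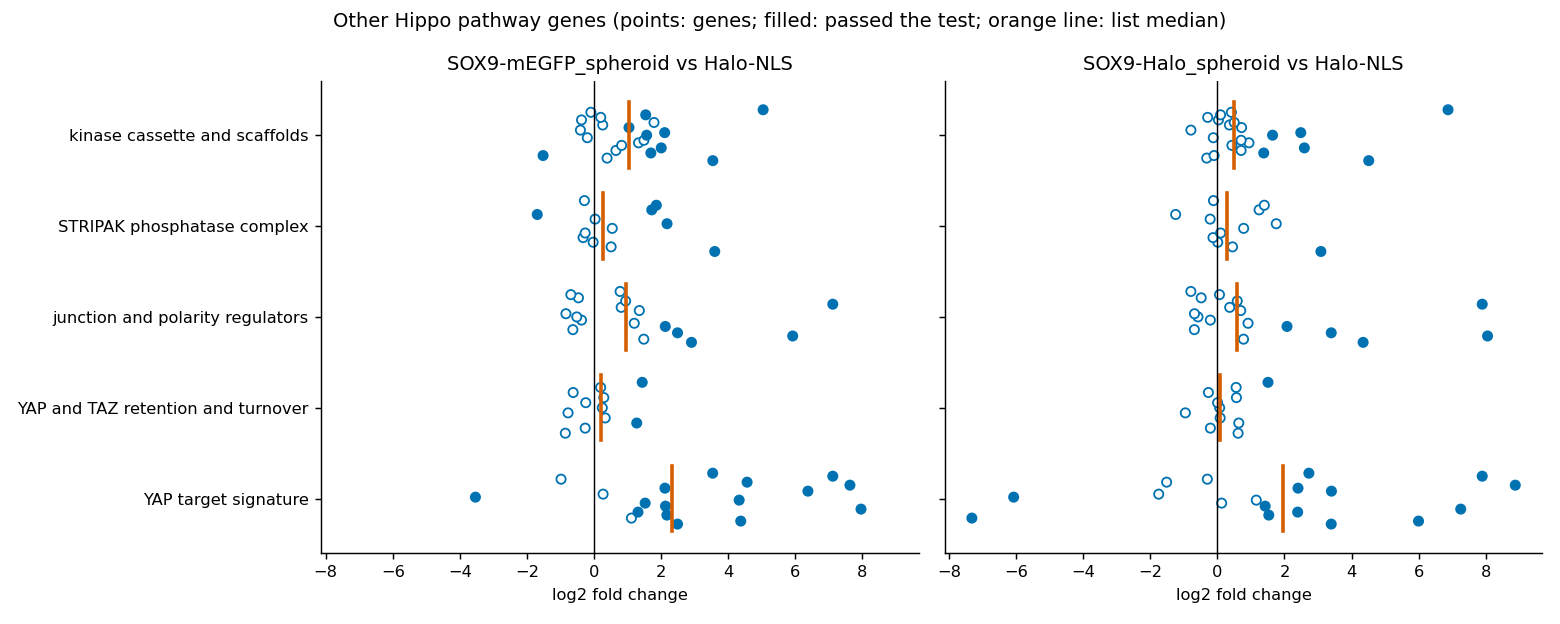
Log2 fold change against Halo-NLS (x axis) of each tested gene of 5 pathway lists (rows) in SOX9-mEGFP_spheroid and SOX9-Halo_spheroid; filled points passed the thresholds and the orange line is the list median. The target list has the highest medians (2.33 and 1.96) and the retention and turnover list the lowest (0.20 and 0.083).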

How the data were processed

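Poly-A RNA-seq libraries of organoids (15 in all) were grouped into 5 conditions by their labels. Per the labels and methods, the authors trimmed reads (cutadapt 4.5), aligned them to GRCm39 with STAR and counted reads per gene with HTSeq 2.0.2 in union mode without strand. The deposited counts are raw whole numbers, so genes that overlap on either strand lose reads. Their normalized table and 7 tables of fold changes and p-values were not used, and 0 columns of values were left without a sample. Counts were scaled by TMM, filtered with filterByExpr and fitted in 1 quasi-likelihood model over all libraries with 1 coefficient per condition (edgeR 4.0.16, R 4.3.3). DESeq2 1.42.0 was an alternative. The fit was tested on simulated data. Normalised counts refer to the mean effective library size of 33558582, and levels per kilobase use the union of GENCODE M39 exons. Replicate numbers were taken to pair libraries where the deviations of all 3 same-numbered pairs correlated over 0.1, which held between SOX9-Halo_spheroid and SOX9-Halo_budding (r = 0.250, 0.143 and 0.209) and in no other comparison, so there the pairing comes from the data and not from the labels. Shares and ratios were tested with two-sided exact permutation tests (scipy 1.17.1). The members, pathway and marker lists were chosen with earlier results of these data known. All 10 members are named. From each pathway list, the 4 called genes with the highest mean count in each comparison of spheroids with Halo-NLS are named, and for members called in both spheroid cultures the 3 genes most like them. Nothing was adjusted over a list alone. Protein sequences were not analysed here.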

Additional observations from a re-analysis of the deposited data

How the results depend on the processing

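Wwtr1 and Tead4 stayed called in all 4 comparisons of spheroids under every alternative, with 1 library left out in turn included (Wwtr1 between 5.35 and 7.37 and Tead4 between 3.09 and 6.13 on the log2 scale over the 4), and Lats2 did so in 3 of them (1.44 to 2.88). Of 698 recomputed fold changes of single genes, 638 kept their direction and their call, 27 gained a call, 12 lost one and 21 changed sign. The cause of the changes below was not tested, apart from the thresholds and lengths that the settings themselves replace.

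With an adjusted p of at most 0.05 alone, the number of genes called against Halo-NLS was 6 in SOX9-Halo_spheroid, 7 in SOX9-mEGFP_spheroid, 1 in SOX9-Halo_budding and 2 in SOX9-mEGFP_budding, and 1 between the spheroids. Without the filter on low counts these were 5, 5, 2, 3 and 1, with 1 in the difference between lines. The genes added were Tead1, Tead2, Lats1 and Tead4. Over all genes without the filter, 5665, 5510, 2357, 1991 and 2968 of 52932 were called in the same order. In the difference between lines, 1881 were called. DESeq2 called 4 genes in each spheroid culture against Halo-NLS (Tead2 and Lats1 added, respectively), 1 in each budding line and 1 between the spheroids (Tead2). Tead2 was likewise the 1 call between the spheroids with the replicate block and with only the libraries compared. The block also gave a call to Tead2 in SOX9-Halo_spheroid against Halo-NLS (1.94, adjusted p = 0.0019, edgeR) and changed no other call in these comparisons of the 10 genes. By the correlation of deviations in these data, the numbers met the rule for pairing in the SOX9-Halo line only. Single pairs correlated more elsewhere, with r = 0.340, 0.613 and 0.089 between SOX9-Halo_budding and Halo-NLS. Replicate effects shared by other conditions are thus not shown to be absent. The blocked fit kept all 4 calls in the SOX9-Halo line. With 1 library left out, 0 to 2 genes were called in SOX9-Halo_budding and 0 to 2 in SOX9-mEGFP_budding, and the 2 were Lats1 and Lats2 without Halo-NLS replicate 1. Calls over all genes then went from 659 to 2370 and from 484 to 2184.

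Values that changed sign were uncalled, and not all were small with 1 library left out. Tead2 in SOX9-mEGFP_spheroid against Halo-NLS was 0.13 with library sizes alone, 0.16 with the block and -0.50 to 0.83 with 1 library left out, and Vgll4 there -0.020 to 0.34. From budding to spheroid, with 1 library left out, Tead1 was -0.25 to 0.61 in the SOX9-Halo line and -0.49 to 0.61 in the SOX9-mEGFP line, where Tead2 was -0.36 to 0.92 (-0.020 with library sizes alone) and Lats1 -0.091 to 0.44. Wwtr1 against Halo-NLS was -0.72 to 0.54 in SOX9-Halo_budding (0.070 with library sizes alone) and -0.85 to 0.25 in SOX9-mEGFP_budding. Lats2 to Lats1 in SOX9-mEGFP_spheroid against Halo-NLS was -0.13 (without Halo-NLS replicate 1) to 0.54 on the log2 scale. Library sizes alone moved the median of all genes to 0.28 and 0.29 in SOX9-Halo_spheroid and SOX9-mEGFP_spheroid against Halo-NLS. The Lats2 call in the SOX9-mEGFP line was also lost without the filter (adjusted p = 0.020, edgeR) and with only the libraries compared (adjusted p = 0.014, edgeR).

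The gain in the Tead4 share of the TEAD pool over Halo-NLS depended on the transcript length used. It was 36.9 percentage points in SOX9-Halo_spheroid and 34.7 in SOX9-mEGFP_spheroid with all exons, 26.5 and 24.3 with the longest transcript, and 33.9 and 28.8 with no length correction. Depth limits Vgll3, and Wwtr1 outside the spheroids, to few reads per library.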
